A study of Mus musculus with 15 samples.

Results

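The cells labelled olig precursor in this striatum data set carried the genes of myelin at high levels and almost none of the precursor genes that their label names. Its members are all cells of the deposited mouse striatum count table whose class line reads olig precursor: 358 of 5581 cells, of which 349 of 5541 remained after removal of cells rich in mitochondrial RNA and of doublets. All 15 animals were male mice of the inbred strain C57BL/6J. Of them, 5 received placebo, 5 carried an implanted pellet releasing haloperidol, and 5 ate food containing olanzapine. Treatment began after about 1 week of habituation in animals bought at 8 weeks of age and ran for 28 to 29 days, and no genetic change is named for any group. Haloperidol is a first-generation antipsychotic that blocks dopamine D2-type receptors, and olanzapine is a later drug that also blocks serotonin, histamine and muscarinic receptors. Since pellet and food each belong to 1 drug, the effects of drug and of its route cannot be told apart. Every mouse was its own animal and its own library, made from about 500 loaded cells with a kit that tags the 3′ end of each RNA. The comparison asks what sets these cells apart from the other 6 classes and whether their number or their gene expression differed between the groups.

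A UMI (unique molecular identifier) marks 1 captured RNA molecule, and CPM is the usual scaling of a gene's UMIs to the total of all class UMIs in a mouse. Because only the 3′ end of a molecule is counted, CPM values were not divided by gene length. The class held 1342478 UMIs, with 864 to 22764 UMIs per cell (median 3322) and a median of 1444 detected genes. Between 4 and 66 class cells came from each mouse. The 13 mice with at least 5 class cells entered per-mouse levels and tests (5 placebo, 4 haloperidol, 4 olanzapine), which left out haloperidol 5 and olanzapine 1 with 4 cells each.

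Some cell barcodes recurred between libraries, and the cause was not tested. Of all deposited cells, 449 carried a barcode that also occurred in another library, forming 229 pairs, of which 95.6% joined cells of the same class, against 17.8% for random pairs of cells. Placebo 5 was in most of them, with 110 pairs shared with placebo 3 and 101 with placebo 2. Within those pairs the deeper copy held a median of 3.25 and 3.05 times the UMIs of the other. Of the 512 analysed placebo 5 cells, 213 were the shallower copy. In the class, 4 of the 18 placebo 5 cells were the shallower copy of a class cell in another mouse. Of these, 3 were shared with placebo 2, which had 7 class cells, and 1 with placebo 3. Which copy was the original was not tested. Counts of called genes, the share of both lineage classes and the median UMIs per cell are given below also in 2 other settings. These are with only the deeper copy kept and without placebo 5. Among gene lists the 2 settings are given for ribosomal protein genes only, and fold changes of single genes are not given in them.

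Oligodendrocytes are the cells of the brain that wrap axons in myelin, a stack of membrane made mostly of lipid with a few very abundant proteins. They arise from dividing precursor cells marked by Pdgfra and Cspg4, pass through a short newly formed stage, and then switch on the myelin genes under transcription factors that include Sox10 and Myrf. In the striatum they myelinate fibre bundles that run through the grey matter.

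The markers went against the label. Mbp and Mobp, proteins that hold the inner faces of the myelin membrane together, had a UMI in 99.7% and 97.7% of class cells. Mog, a protein of the outermost myelin surface, was seen in 98.9%, and Cldn11, which seals the myelin layers with tight junctions, in 99.7%. In the class labelled oligodendrocyte the same genes were seen in 17.3% (Mbp), 3.03% (Mobp), 1.95% (Mog) and 5.84% (Cldn11) of cells. Precursor genes behaved the other way. Pdgfra, the growth factor receptor that defines precursors, was seen in 0.287% of class cells and averaged 978 CPM in the class labelled oligodendrocyte. Summed over 12 precursor markers, the class held 72.1 CPM and the class labelled oligodendrocyte 11720 CPM. Neu4 was at 0 in the class. Counted per cell, every one of the 349 cells expressed at least 12 of 27 listed myelin genes (median 21). That level was reached by 18 of 462 cells labelled oligodendrocyte, 2 of 1607 astrocytes and 0 cells of the other 4 classes. The 2 deposited lineage labels are therefore written here as labels only.

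The DNA just upstream of 4 of the class's leading genes is shown because these promoters hold the letters that lineage transcription factors are known to favour. Each run covers 250 bases before the RefSeq transcription start, 5′ to 3′ on the strand of the gene, on GRCm38.p6. Capitals mark ACAAAG (or CTTTGT, the same site on the other strand), the core favoured by SOX proteins such as Sox10, and CTGGCAC or CTGGTAC (or their reverse complements), the core favoured by Myrf. Opalin, a membrane protein of the paranodal loops, lies on the minus strand (chr19:41077114-41077363). Mobp lies on the plus strand (chr9:120149492-120149741). Mog (chr17:37023399-37023648) and Mag (chr7:30914864-30915113), an adhesion protein of the myelin layer facing the axon, lie on the minus strand.
Opalin: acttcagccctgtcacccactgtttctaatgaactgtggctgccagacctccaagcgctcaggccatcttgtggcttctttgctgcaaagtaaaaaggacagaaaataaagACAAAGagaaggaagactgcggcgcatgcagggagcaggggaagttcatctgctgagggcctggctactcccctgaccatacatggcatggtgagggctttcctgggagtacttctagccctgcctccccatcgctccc
Mobp: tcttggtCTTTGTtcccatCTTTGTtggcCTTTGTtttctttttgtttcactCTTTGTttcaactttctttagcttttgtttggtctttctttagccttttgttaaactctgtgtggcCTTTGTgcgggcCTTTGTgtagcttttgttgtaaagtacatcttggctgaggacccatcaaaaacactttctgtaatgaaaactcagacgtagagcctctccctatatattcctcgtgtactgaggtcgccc
Mog: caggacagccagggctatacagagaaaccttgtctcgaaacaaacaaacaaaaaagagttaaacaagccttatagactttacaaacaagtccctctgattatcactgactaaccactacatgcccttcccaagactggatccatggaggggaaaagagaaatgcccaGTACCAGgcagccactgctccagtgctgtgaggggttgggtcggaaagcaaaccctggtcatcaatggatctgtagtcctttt
Mag: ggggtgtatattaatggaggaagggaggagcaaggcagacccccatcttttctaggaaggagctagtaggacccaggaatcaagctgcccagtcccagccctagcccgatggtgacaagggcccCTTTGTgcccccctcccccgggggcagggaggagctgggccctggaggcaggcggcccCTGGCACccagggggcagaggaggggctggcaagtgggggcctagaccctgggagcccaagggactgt
The Opalin window held 1 SOX core, 139 bases upstream of the start. The Mobp window held 6, at 243, 231, 221, 198, 132 and 120 bases. Mog carried a MYRF core 83 bases upstream, and Mag carried a SOX core at 126 and a MYRF core at 68 bases. Of the 25 leading genes described next, 21 had a RefSeq promoter, 28 promoters in all. A SOX core stood in 28.6% of these promoters, against 12.4% of 15229 promoters of genes in the count table. A MYRF core stood in 21.4%, against 5.77%. Some genes had more than 1 promoter, and those of Mag overlapped, so that the same sites were counted again. Counted by gene, a SOX core stood in 28.6% of the 21 genes against 14.7% of 11894, and a MYRF core in 23.8% against 7.00%. Such a match is a stretch of letters and not a measured binding site, and no test was made of the difference.

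The genes that set the class apart were ranked by their mean CPM over mice against the next highest class, among the 1773 genes seen in at least 25% of class cells. Because the authors' classes were built from these same values, the ranking describes the class and was not tested. Opalin led, at 1855 ± 616 CPM (SD, n = 13), ranging from 1147 over a median of 1841 to 3270 between mice, against 3.54 CPM in the next class. Mobp followed at 4518 ± 1216 CPM, with a lowest, median and highest mouse of 3099, 4195 and 6846, against 11.4 in the next class. Mog was at 2757 ± 833 CPM, with 1935, 2505 and 5244. The lowest class mouse thus lay far above every other class for each of these genes. Other myelin proteins ranked high: Hapln2, which binds the matrix at nodes of Ranvier, at a lowest, median and highest mouse of 286, 783 and 2036 CPM, Ermn, a cytoskeletal protein of the outer myelin tongue, at 1616 ± 308, and Mag at 2907 ± 1401. Cldn11 stood at 6636 ± 1552 CPM and Mbp at 8010 ± 1221. Gjb1 (741 ± 493 CPM), a connexin that forms gap junctions, was also among the 25.

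Enzymes and signalling proteins completed the ranking. Aspa, which splits the N-acetylaspartate that neurons supply for lipid synthesis, was at 580 ± 193 CPM, and Ptgds, which makes prostaglandin D2, at 11299 ± 6271 with a range over mice from 4194 to 27485. S1pr5, a sphingosine phosphate receptor of this lineage, was at 195 ± 75.8 CPM and Gpr62, an orphan receptor, at 209 ± 232. Further names were C030029H02Rik, Tmem125, Cyp2j12, Galnt6, Tnni1, Smco3, Tmem88b, Pls1, Anln and Plekhh1. Ratios to the next class ran from 8.68 down to 4.57 on the log2 scale. Every class mouse stood above every mouse of every other class for 111 of the 1773 genes. Among the 25 genes, which were picked by their ratio in these same values, this held for 21. The exceptions were Cyp2j12, Tnni1, Gpr62 and Plekhh1. Of all 1773 genes, 551 were highest in the class, 265 by more than 2-fold, 128 by more than 4-fold and 31 by more than 16-fold. The share of cells with a UMI fell with depth: its median over the 25 genes was 70.2% in whole cells and 48.3% when each cell was thinned to 1500 UMIs.

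**Figure D1:**
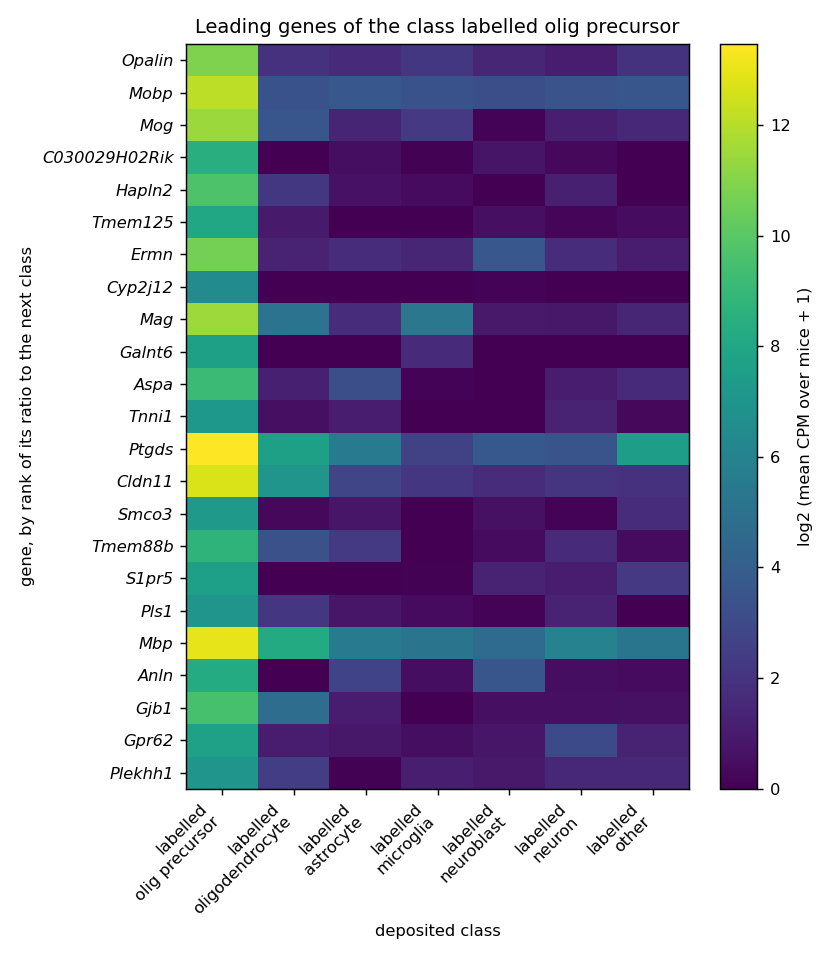
Heat map of 23 of the 25 leading genes (vertical) in the 7 deposited classes (horizontal), coloured by log2 of mean CPM over mice plus 1. The class labelled olig precursor has the highest value for every gene drawn, and Ptgds, Mbp and Cldn11 show a fainter signal in the class labelled oligodendrocyte.

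Groups of genes with a known part in myelin were then summed. As a background, 21.3% of the 4168 genes seen in at least 10% of class cells were highest in the class. That base held all 27 myelin structure and all 20 sphingolipid and fatty acid genes. It held fewer genes of the other lists, as given below for each. Of 27 myelin structure genes, 24 were highest in the class, and their sum was 92286 ± 9063 CPM against 8707 CPM in the class labelled oligodendrocyte. Among them, Cnp, an enzyme that keeps cytoplasmic channels in myelin open, stood at 5697 ± 1610 CPM and Mal, a proteolipid of compact myelin, at 4825 ± 978. The exceptions were Cd9, Omg and Sirt2, each higher in the class labelled oligodendrocyte. Cd9 stood at 1263 ± 431 CPM against 2451, Omg at 122 ± 49.7 against 173, and Sirt2 at 766 ± 252 against 834.

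Transcription factors of the lineage divided. Of 16, 6 were highest in the class, all of them among the 12 seen in at least 10% of class cells. Nkx6-2, a homeobox factor of late oligodendrocytes, was at 642 ± 105 CPM against 55.7 in the next class, and Myrf, the membrane-bound switch for myelin genes, at 192 ± 69.2 against 43.5. Zfp536 (134 ± 61.8), St18 (78.5 ± 23.8), Carhsp1 (525 ± 109) and Zeb2 (532 ± 146) completed that set. Factors that already act in precursors were higher in the class labelled oligodendrocyte. Olig1 stood at 1236 ± 303 CPM against 4134, Olig2 at 59.4 ± 41.1 against 564, Sox10 at 235 ± 94.3 against 513, and Sox8 at 229 ± 61.2 against 462.

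Lipid genes split by pathway. Of 20 genes for myelin sphingolipids and fatty acids, 13 were highest in the class, with a sum of 8283 ± 1770 CPM against 1974 in the class labelled oligodendrocyte. They included Ugt8a, which makes galactosylceramide, at 683 ± 214 CPM, Fa2h, which hydroxylates its fatty acids, at 474 ± 98.3, and Scd2, a desaturase, at 1821 ± 628. Of 22 cholesterol synthesis genes, 4 were highest in the class, all of them among the 15 seen in at least 10% of class cells. The sum of the 22 was 1447 ± 436 CPM, below the 2658 CPM of astrocytes and above the 891 CPM of the class labelled oligodendrocyte.

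Iron, cytoskeletal and energy genes showed further marks of the class. Fth1, the heavy chain of the iron store ferritin, stood at 32831 ± 9750 CPM against 3752 in microglia, and Trf, the iron carrier transferrin, at 8105 ± 3820 against 1381. They were the only 2 of 11 iron genes that were highest in the class, and only 3 of the 11 were seen in at least 10% of class cells. Of 22 cytoskeleton and outgrowth genes in the table, 14 were highest in the class, with a sum of 22084 ± 1556 CPM. Examples were Tubb4a (1693 ± 410), a tubulin of myelinating cells, Stmn4 (3143 ± 556), which loosens microtubules, and Cryab (5975 ± 1078), a small heat shock protein. Of 18 energy and ion genes, 8 were highest in the class, among them Car2 (4816 ± 1118), a carbonic anhydrase, and Kcna1 (474 ± 233), a voltage-gated potassium channel. The 14 and 8 all stood among the 21 cytoskeleton and 15 energy genes seen in at least 10% of class cells.

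Several other groups held few or no genes that were highest in the class. Of 17 genes of newly formed oligodendrocytes only Enpp6 was highest in the class, at 198 ± 119 CPM, and the sum was 597 ± 229 CPM against 3312 in the class labelled oligodendrocyte. Bmp4 and Gpr17, which mark cells on the way to myelination, were seen in 0.287% and 1.43% of class cells. None of 25 immediate early genes, which neurons and glia switch on within minutes of a stimulus, was highest in the class. They summed to 856 ± 387 CPM against 18380 in microglia and 10560 in the class labelled oligodendrocyte. None of 85 cytosolic ribosomal protein genes, 16 interferon response genes, 16 unfolded protein response genes or 18 clock genes in the table was highest in the class either. Genes seen in at least 10% of class cells numbered 83 ribosomal, 2 interferon, 13 unfolded protein response and 3 clock genes. They numbered 5 on the newly formed list and 5 on the immediate early list. Some groups held more. Of 13 mitochondrial genome genes, all seen in at least 10% of class cells, 8 were highest in the class. Of 25 growth factor and axon signal genes 5 were, all among the 7 seen in that share of cells. On a mature oligodendrocyte list with Ptgds and Apod, 9 of 14 were, all among the 13 seen in that share.

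The receptors that the drugs bind were close to undetected in these cells. Of 29 receptors on the list, 24 were in the table, 18 had no UMI in any class cell and 23 were seen in under 1% of cells. A count of 0 in 349 cells allows a share of cells with a UMI of up to 0.860%, taking 3 counts as the limit and covering counting error only. Drd1, a dopamine receptor, had a UMI in 0.287% of class cells (95% exact binomial interval 0.00725% to 1.59%), beside 34.6% of neurons, 0.224% of microglia and 0.249% of astrocytes. Drd2, the main target of haloperidol, was seen in 0.573% of class cells (0.0695% to 2.05%), 22.4% of neurons and 0.673% of microglia, at median depths of 3322, 3319 and 3413 UMIs per cell. Both intervals include the shares in microglia and astrocytes.

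RNA of other cell types was low. The 12 astrocyte markers summed to 217 CPM on average over mice (37.2 to 506) against 26402 CPM in astrocytes, and 12 microglia markers to 114 CPM (0 to 596) against 63586. Projection neuron markers summed to 160 CPM (41.2 to 488) and general neuron markers to 308 CPM (95.4 to 1209), the highest values being in placebo mice. The 10 endothelial markers summed to 23.6 CPM, with Cdh5, Vwf, Slco1a4 and Tek at 0. The neuroblast list reached 3057 CPM (1728 to 4452), of which Stmn1, a gene oligodendrocytes also express, made up 3024 CPM, and Dcx, which defines neuroblasts, was at 0.

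The 349 cells were clustered among themselves into 4 groups, which describe variation inside the class and were not tested, since the genes that define a cluster also made it. Cluster 4, with 61 cells from 14 mice, stood apart in named genes. It carried Klk6, a secreted protease of mature oligodendrocytes, at 1560 CPM, against 719, 11.3 and 42.5 CPM in clusters 1 to 3. S100b, a calcium-binding protein, stood at 2598 CPM against 357, 209 and 170. Hopx, a small homeodomain protein, was at 265 CPM against 5.49, 2.82 and 2.24, and Anxa5, which binds membrane phosphatidylserine, at 407 against 16.5, 36.6 and 47.0. All 4 genes were highest in cluster 4, and Klk6 was also present in cluster 1. In cluster 4 Ptgds was at 792 CPM against 28168, 16227 and 11830 in clusters 1 to 3, and Opalin at 120 against 2860, 1688 and 2432. Il33, a nuclear cytokine, stood at 103 CPM against 505, 1020 and 1168, and Apoe, a lipid carrier, at 421 CPM against 5039, 1637 and 2928. Of 27 myelin structure genes, 10 were higher and 17 lower in cluster 4 than in the other clusters (median log2 ratio -0.15). Mbp was at 8449 CPM in cluster 4 against 5198, 10003 and 8340 in clusters 1 to 3, whereas Mal was at 2238 against 7662, 4542 and 5512.

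Klk6 and Opalin, both picked from the genes that marked cluster 4, were then counted cell by cell over all mice together. These counts describe the same cells as the clusters and are no separate support for them. Of 83 cells with a Klk6 UMI, 36.1% had an Opalin UMI, whereas 94.4% of the other cells did. After thinning each cell to 1500 UMIs, which kept 302 cells, the shares were 22.4% and 84.8%. Il33 followed Opalin, in 22.9% of Klk6 cells and 77.1% of the others. S100b followed Klk6, in 86.7% and 25.2%. Cluster 4 was the deepest of the 4 groups (median 5623 UMIs per cell) and held 17.6 ± 7.46% (SD, n = 5) of class cells in placebo mice, 15.0 ± 11.0% (n = 4) in haloperidol mice and 13.7 ± 8.35% (n = 4) in olanzapine mice.

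Cluster 1, with 96 cells from 14 mice, was the shallowest, at a median of 1726.5 UMIs per cell and 10.4% mitochondrial UMIs, against 3.32% to 4.42% in the others. Trf stood at 19062 CPM against 5757 in clusters 2 to 4. Mag was at 7196 against 2181 CPM, Pdia3, a folding enzyme of the endoplasmic reticulum, at 620 against 185, and Ctsd, a lysosomal protease, at 719 against 184. Mbp went the other way, at 5198 against 8882 CPM, as did Mobp, at 2278 against 5149, while Adi1 and Bag1 were at 0. All 13 genes of the mitochondrial genome were higher in cluster 1 (median log2 ratio 1.21) and 0 of 83 ribosomal protein genes were (median -1.24). Of 13 unfolded protein response genes 11 were higher (median 1.12), and all 7 growth factor and axon signal genes were (median 0.83). Over all 4168 genes compared, 1360 were higher and 2808 lower, with a median of -0.41. In each cluster 3 mice gave most of the cells. In cluster 1, olanzapine 3, placebo 1 and haloperidol 3 gave 51 of 96 cells. In cluster 2, haloperidol 3, olanzapine 5 and haloperidol 4 gave 71 of 96. In cluster 3, placebo 1, olanzapine 3 and olanzapine 4 gave 55 of 96. In cluster 4, haloperidol 3, olanzapine 5 and olanzapine 3 gave 34 of 61.

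**Figure D2:**
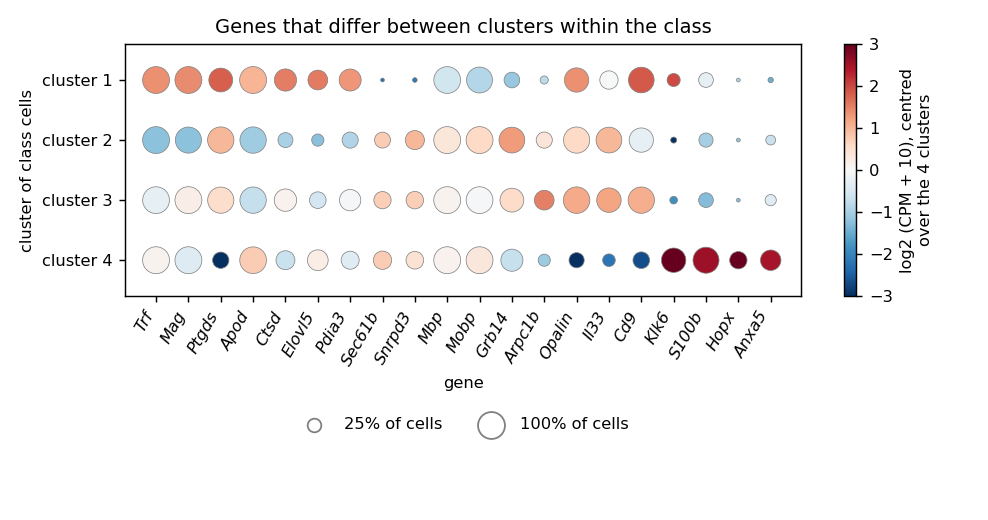
Dot plot of 20 genes (horizontal) in the 4 clusters of the class (vertical), where dot area is the percent of cells with a UMI and colour is log2(CPM + 10) centred over the 4 clusters. Klk6, S100b and Hopx stand out in cluster 4, where Opalin, Ptgds and Il33 are low, and Trf, Pdia3 and Ctsd are highest in cluster 1.

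The number of class cells did not differ between groups beyond the spread of mice. Placebo mice 1 to 5 had 49, 7, 8, 16 and 18 class cells, haloperidol mice 9, 5, 66, 35 and 4, and olanzapine mice 4, 15, 46, 29 and 38. As a share of all cells of a mouse this was 5.26 ± 3.25% in placebo (SD, n = 5), 6.75 ± 3.38% in haloperidol and 7.00 ± 3.01% in olanzapine mice. The 3 groups overlapped. The differences gave p = 0.492 (haloperidol against placebo), 0.381 (olanzapine against placebo) and 0.905 (haloperidol against olanzapine) by exact two-sided permutation over mice. The differences from placebo, 1.49 points for haloperidol and 1.74 for olanzapine, depended on single mice. They were 2.92 and 3.17 points without placebo 1 (exact permutation p = 0.159 and 0.0476, adjusted 0.476 and 0.321). The haloperidol difference was 0.529 points without haloperidol 3, and the olanzapine difference 0.566 points without olanzapine 2. As a share of the cells of both lineage classes, the class made up 33.0 ± 13.1% in placebo, 42.2 ± 17.6% in haloperidol and 49.2 ± 14.0% in olanzapine mice. The olanzapine difference from placebo, 16.2 percentage points, had an exact permutation p of 0.0952 and an adjusted p of 0.476 over the 15 such tests. With only the deeper copy of shared barcodes it was 14.6 points (p = 0.127) and without placebo 5 13.8 points (p = 0.190, exact permutation).

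Class cells of placebo mice were shallower. Their median UMIs per cell were 2897, 2207, 1805.5, 2365.5 and 3424.5 in placebo 1 to 5. The values were 3985, 4488, 3269.5 and 3310 in haloperidol 1 to 4 and 3512, 4562, 3423 and 3122.5 in olanzapine 2 to 5. Only placebo 5 reached the range of the treated mice. The means were 2540 ± 631 (n = 5), 3763 ± 584 (n = 4) and 3655 ± 627 (n = 4), and each drug against placebo had an exact permutation p of 0.0476, adjusted p 0.357. Without placebo 5 the differences were 1444 and 1336 UMIs, with exact permutation p-values of 0.0286 each (adjusted 0.214). With only the deeper copy of shared barcodes the differences from placebo were 1151 and 1043 UMIs, against 1223 and 1115 with all cells, and the exact permutation p-values 0.0635 and 0.0952 (adjusted 0.635). Cluster 1 took 45.9 ± 19.0% of class cells in placebo mice (16.7% to 62.5%), 21.3 ± 13.0% in haloperidol mice (11.1% to 40.0%) and 24.5 ± 13.9% in olanzapine mice (10.5% to 43.5%). Placebo 5 was the placebo mouse with the lowest share. The shares of UMIs from the myelin list (9.16 ± 0.904%, 8.99 ± 1.01% and 9.55 ± 0.976%) and from the mitochondrial genome (5.31 ± 1.24%, 5.37 ± 0.687% and 4.85 ± 0.349%) overlapped between placebo, haloperidol and olanzapine mice. None of the 15 tests passed adjustment.

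**Figure D3:**
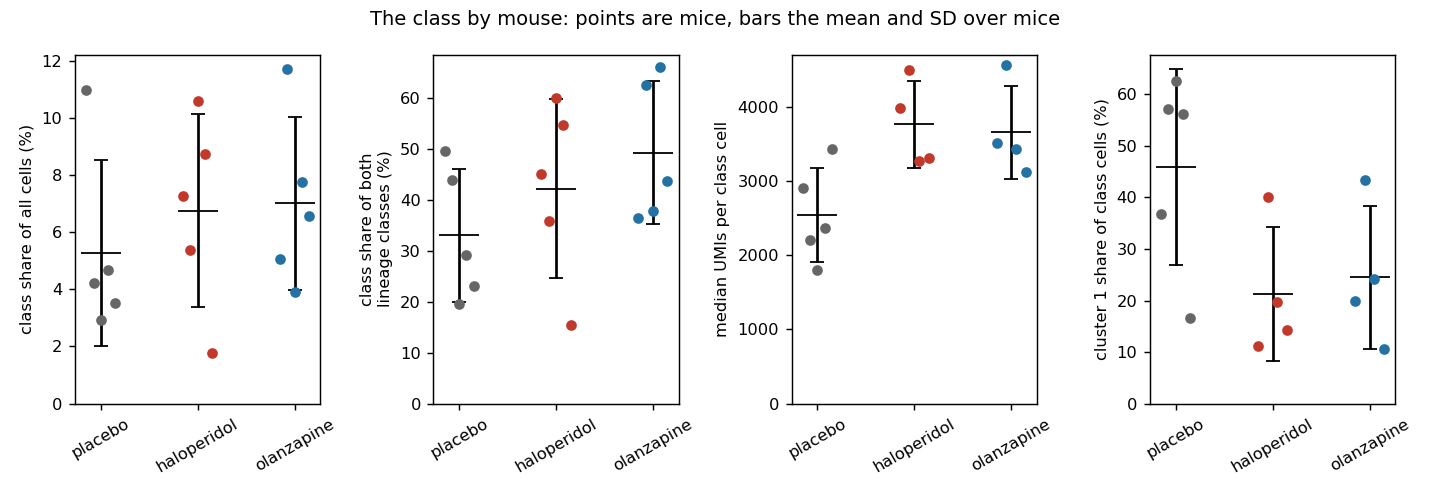
Class measures by group (horizontal), 1 point per mouse with bars for the mean and SD: the class's share of all cells (%), its share of the cells of both lineage classes (%), the median UMIs per class cell, and the share of class cells in cluster 1 (%). Groups overlap in all panels, with placebo mice lower in median UMIs (1805.5 to 3424.5) and higher in cluster 1 share (16.7% to 62.5%).

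Counts of class cells were summed per mouse to ask which genes differed between groups, and 1192 genes were abundant enough to test. At an adjusted p of 0.05, edgeR's quasi-likelihood test with Benjamini-Hochberg adjustment called 0 of 1192 genes (0%) in haloperidol against placebo, in olanzapine against placebo and in haloperidol against olanzapine. The smallest adjusted p-values were 0.262, 0.312 and 0.998. Genes with an unadjusted p under 0.05 numbered 90 (7.55%), 48 (4.03%) and 35 (2.94%). Under haloperidol 3.36% of genes were higher and 4.19% lower at that p, under olanzapine 1.51% and 2.52%, and between the drugs 1.59% and 1.34%. DESeq2 also called 0 in each, with 69, 30 and 24 at an unadjusted p under 0.05. The groups did not overlap for 2.35%, 1.34% and 1.93% of the genes. The median standard error of a log2 fold change was 0.32, 0.30 and 0.30. The same counts of 0 were found with only the deeper copy of shared barcodes (1011 genes tested) and without placebo 5 (1650 genes tested). The values that follow are therefore a description of genes with the smallest p and of listed genes, in CPM of the tested genes with TMM scaling. Both drugs were set against the same 5 placebo mice, so their differences from placebo are not independent of each other.

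None of the 4 marker genes passed the test. Mbp stood at 10410, 8590, 10198, 9442 and 10427 CPM in placebo 1 to 5, at 12811, 9588, 12868 and 11042 in haloperidol 1 to 4, and at 11180, 9974, 9212 and 13599 in olanzapine 2 to 5. The groups overlapped, with log2 fold changes of 0.24 ± 0.20 (SE) for haloperidol and 0.16 ± 0.20 for olanzapine. Mog was at 3477, 4142, 6990, 4047 and 2855 CPM in placebo, 3354, 3412, 3275 and 2591 in haloperidol, and 2912, 3639, 4158 and 3143 in olanzapine mice. Placebo 3, with 8 class cells, was the high value, and the log2 fold changes were -0.42 ± 0.25 and -0.28 ± 0.24. Mobp was at 4042, 5276, 5592, 4542 and 5901 CPM in placebo, 7508, 4941, 9171 and 7431 in haloperidol, and 6219, 4477, 5192 and 8260 in olanzapine mice. For Mobp 3 of 4 haloperidol mice stood above all placebo mice (log2 fold change 0.53 ± 0.23, edgeR adjusted p = 0.573). Cldn11 gave log2 fold changes of -0.23 ± 0.24 and -0.11 ± 0.23. Leaving out cluster 1 kept 10 mice, because placebo 2, placebo 3 and haloperidol 2 then had fewer than 5 class cells. Here and below, the removal of cluster 1 and the loss of these mice cannot be told apart. With cluster 1 left out, Mog and Cldn11 turned to 0.13 and 0.28 under haloperidol and to 0.29 and 0.35 under olanzapine.

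In haloperidol against placebo, Cdc42bpa, a kinase that acts on actin and myosin, had the largest positive difference among the 10 genes with the smallest p. It was at 90, 87, 164, 138 and 85 CPM in placebo mice, 288, 412, 277 and 271 in haloperidol mice, and 222, 119, 179 and 171 in olanzapine mice. Every haloperidol mouse stood above every placebo mouse (log2 fold change 1.51 ± 0.36, adjusted p = 0.262 by edgeR). Myrf was at 207, 131, 247, 138 and 148 CPM in placebo and 383, 412, 375 and 262 in haloperidol mice, again without overlap (0.96 ± 0.31, adjusted p = 0.512). Olanzapine mice were at 271, 275, 179 and 322, of which 3 lay above all placebo mice and 1 inside the placebo range. Tsc22d4, a leucine zipper protein, averaged 1704 ± 818 CPM against 926 ± 144, with haloperidol 2 below all placebo mice at 647 (0.89 ± 0.28). Zfp536, a zinc finger repressor of the lineage, averaged 268 ± 71.9 against 113 ± 40.5 CPM (1.08 ± 0.39, adjusted p = 0.512).

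Of the 10 genes with the smallest p, 7 had lower values under haloperidol. Uqcrc1, a core subunit of respiratory complex III, was at 331, 305, 247, 303 and 233 CPM in placebo, 192, 59, 104 and 126 in haloperidol, and 296, 250, 264 and 181 in olanzapine mice. The haloperidol mice were all below the placebo mice (-1.28 ± 0.32, adjusted p = 0.262 by edgeR). Tbcb, which folds tubulin, averaged 131 ± 29.1 against 285 ± 93.1 CPM without overlap (-1.06 ± 0.32). Psmb1, a proteasome subunit, averaged 343 ± 39.6 against 683 ± 270 (-0.83 ± 0.26), and Cct5, a chaperonin subunit, had a log2 fold change of -1.14 ± 0.36. Emc7, part of a complex that inserts membrane proteins, averaged 423 ± 60.1 against 721 ± 208 CPM without overlap (-0.80 ± 0.25), and Sccpdh gave -0.84 ± 0.27. Ppib, a folding enzyme of the endoplasmic reticulum, averaged 249 ± 72.2 against 554 ± 318 CPM (-1.02 ± 0.34), with placebo 3 alone at 1069. With cluster 1 left out, Ppib moved to -0.45, Psmb1 to -0.50 and Emc7 to -0.52, whereas Cdc42bpa, Uqcrc1 and Myrf stood at 1.77, -1.27 and 0.94.

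In olanzapine against placebo, Dcaf17, a substrate adaptor of a ubiquitin ligase, had the smallest p. It was at 745, 349, 1151, 1459 and 846 CPM in placebo, 346, 150, 401 and 383 in olanzapine, and 639, 176, 531 and 695 in haloperidol mice. Placebo 2 fell inside the olanzapine range (log2 fold change -1.53 ± 0.35, adjusted p = 0.312 by edgeR). Without placebo 2 Dcaf17 was the only gene called (-1.67, adjusted p = 0.0211). Gnb1, a G protein subunit, was at 573, 567, 247, 220 and 613 CPM in placebo and 222, 219, 243 and 212 in olanzapine mice (-1.10 ± 0.28). Placebo mice split into high and low values for it. Nfasc, a cell adhesion protein that anchors myelin beside the node of Ranvier, was at 331, 305, 411, 275 and 338 CPM in placebo, 148, 244, 169 and 141 in olanzapine, and 383, 353, 329 and 298 in haloperidol mice. Olanzapine mice stood below all others (-0.82 ± 0.27 against placebo, adjusted p = 0.979). Dock10, which activates Cdc42, stood at 131 to 169 CPM in placebo and above that in all mice of both drugs, with log2 fold changes of 0.86 ± 0.33 for olanzapine and 0.98 ± 0.35 for haloperidol. Neat1, a long noncoding RNA that builds nuclear paraspeckles, averaged 558 ± 191 against 1371 ± 736 CPM (-1.11 ± 0.33). Insig1, which restrains sterol synthesis, averaged 139 ± 73.6 against 244 ± 71.0 (-1.05 ± 0.36). Naxe (-0.81 ± 0.27), Ttyh2 (-0.81 ± 0.29) and Psenen (-0.66 ± 0.26) were lower and Phyhipl (0.98 ± 0.35) higher. With cluster 1 left out, Neat1 moved to -0.44, Naxe to -0.47 and Psenen to -0.21, and Dcaf17 stood at -1.66.

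The drugs set against each other gave the same names in part. Cdc42bpa averaged 312 ± 67.0 CPM under haloperidol and 173 ± 42.4 under olanzapine (log2 0.83 ± 0.31), Nfasc 341 ± 36.2 and 175 ± 47.1 (0.85 ± 0.27), and Tbcb 131 ± 29.1 and 282 ± 70.4 (-0.94 ± 0.31), each without overlap. Ppp1r16b, a phosphatase subunit, also did not overlap, at 1180 ± 202 against 678 ± 174 CPM (0.80 ± 0.26). Elovl7, which lengthens fatty acids, averaged 176 ± 82.5 against 320 ± 119 (-1.21 ± 0.38). Uqcrc1, Klf13, Rcan2, Arsg and Ttyh2 were the other names, with log2 differences of -1.01, 0.96, 1.05, -0.95 and 0.77. All of these had an adjusted p of 0.998 by edgeR.

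**Figure D4:**
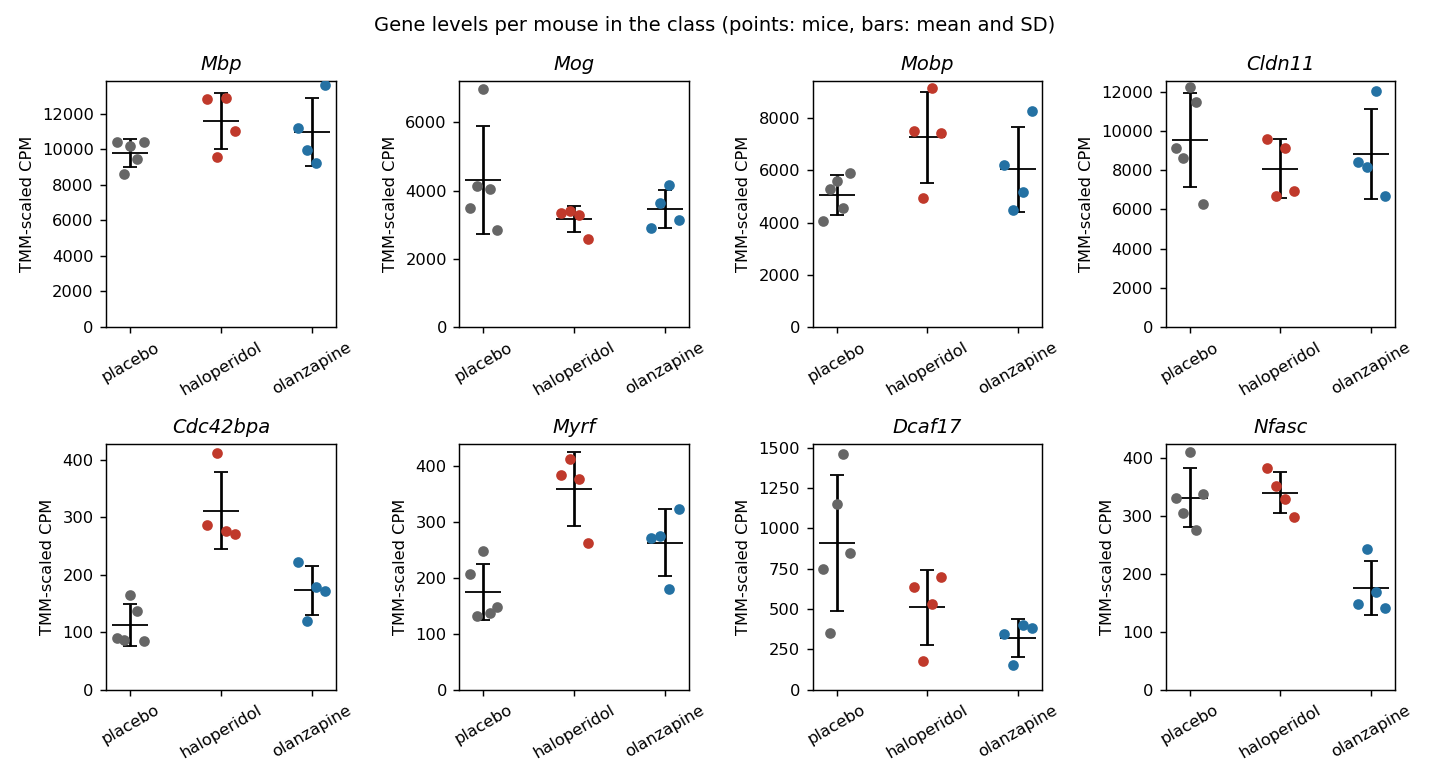
TMM-scaled CPM in the class (vertical, starting at 0) for 8 genes by group (horizontal), 1 point per mouse with bars for the mean and SD. Mbp, Mog, Mobp and Cldn11 overlap between groups, Cdc42bpa and Myrf are higher in all haloperidol than in all placebo mice, and Nfasc is lower in all olanzapine mice than in the others.

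Listed gene groups were read against the 1192 tested genes, of which 592 were higher in haloperidol than in placebo mice (median log2 fold change -0.00) and 566 in olanzapine mice (median -0.02). No member of any list was called. Of 26 myelin structure genes tested, 12 were higher under haloperidol and 12 under olanzapine, with medians of -0.14 and -0.10. Pmp22, a small membrane protein of myelin, averaged 363 ± 126 CPM under haloperidol against 828 ± 527 (-0.99 ± 0.39). Of 8 lineage transcription factors, 5 and 6 were higher, with medians of 0.14 and 0.13. Of 13 sphingolipid and fatty acid genes, 5 and 7 were higher, and Ugt8a averaged 658 ± 171 CPM under haloperidol against 1022 ± 124 (-0.64 ± 0.27).

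The medians of the cholesterol synthesis and unfolded protein response lists lay below that of all genes tested in both drug groups. All 5 tested cholesterol genes were lower in both drug groups, with medians of -0.91 under haloperidol and -0.45 under olanzapine. They are 5 of 22 listed genes, the others being too scarce to test. Fdps, which makes farnesyl diphosphate, was at 290, 305, 329, 193 and 106 CPM in placebo mice and 96, 59, 98 and 108 in haloperidol mice (-1.25 ± 0.46, adjusted p = 0.512 by edgeR). Placebo 5 lay inside the haloperidol range. Msmo1 and Sc5d, which act late in the pathway, gave -0.91 ± 0.38 and -1.16 ± 0.54. Of 6 unfolded protein response genes, 0 were higher under haloperidol (median -0.62) and 1 under olanzapine (median -0.42). Pdia6, a disulfide isomerase, averaged 152 ± 180 against 278 ± 71.6 CPM under haloperidol (-1.35 ± 0.45), and Pdia3 gave -0.78 ± 0.32 and -0.71 ± 0.30 for the drugs. Of 7 cytosolic heat shock genes, 3 were higher under haloperidol (median -0.02) and 5 under olanzapine (median 0.20). The 6 tested growth factor and axon signal genes were all lower in both groups, with medians of -0.36 and -0.25. Ribosomal protein genes went the other way under haloperidol, where 74 of 80 were higher (median 0.21), and 50 of 80 were higher under olanzapine (median 0.05). Without placebo 5 the ribosomal counts were 78 of 80 (median 0.33) and 67 of 80 (median 0.21). With only the deeper copy of shared barcodes they were 69 of 80 (median 0.19) and 52 of 80 (median 0.11). Rpl9 (0.57 ± 0.24) and Rpl35a (0.52 ± 0.25) had the smallest p among them for haloperidol. Of 12 mitochondrial genome genes, 8 and 1 were higher, with medians of 0.04 and -0.20.

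The cholesterol, unfolded protein response and growth factor lists also stood higher in cluster 1, whose share of class cells averaged 45.9% in placebo mice and 21.3% and 24.5% in the drug groups, and ribosomal protein genes stood lower there. With cluster 1 left out (3 placebo, 3 haloperidol and 4 olanzapine mice, 238 cells, 2266 genes tested, 0 called), the cholesterol median was -0.65 under haloperidol, with 3 of 10 genes higher, and -0.22 under olanzapine. The myelin structure list turned direction, with 15 of 27 genes higher under haloperidol (median 0.05) and 20 of 27 under olanzapine (median 0.14). The unfolded protein response medians were -0.65 and -0.10, and those of growth factor and axon signals -0.39 and -0.00. Ribosomal protein medians were 0.20 and -0.02. Mitochondrial genome genes then stood higher under haloperidol, 12 of 12 with a median of 0.56, and 10 of 12 under olanzapine with a median of 0.15. The part of cluster 1 and of depth in these values was not tested. Leaving out cluster 1 also removed placebo 2, placebo 3 and haloperidol 2, and it changed which genes stood behind the medians. Jun, an immediate early gene, had log2 fold changes of -0.89 ± 0.35 and -0.71 ± 0.33. Hsp90ab1, a cytosolic chaperone, averaged 2059 ± 485 CPM under olanzapine against 1227 ± 419 (0.68 ± 0.27), and Kcna1 averaged 937 ± 524 CPM under haloperidol against 506 ± 90.0 (0.68 ± 0.29). For Kcna1, haloperidol 2, with 5 class cells, was the high value at 1706 CPM, and haloperidol 4 lay inside the placebo range at 578. No drug receptor and no clock gene was abundant enough to test.

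**Figure D5:**
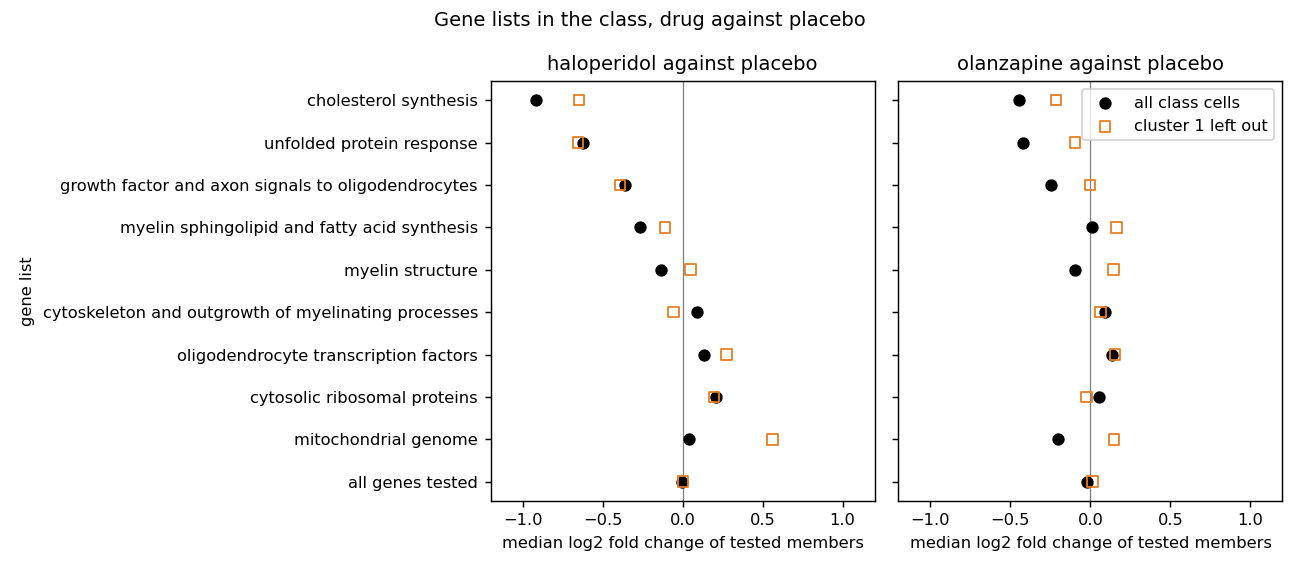
Median log2 fold change of the tested members (horizontal) of 9 gene lists and of all genes tested (vertical), for haloperidol and olanzapine against placebo, with all class cells (black circles) and with cluster 1 left out (orange squares). Cholesterol synthesis lies farthest to the left under haloperidol (-0.91, or -0.65 with cluster 1 left out), and under olanzapine at -0.45, or -0.22 with cluster 1 left out.

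The genes of cluster 4 had wide spreads between mice. Klk6 averaged 1378 ± 1120 CPM in placebo, 336 ± 225 in haloperidol and 666 ± 591 in olanzapine mice, from 0 in haloperidol 1 to 3125 in placebo 3. Its log2 fold changes were -1.72 ± 0.85 and -0.79 ± 0.77, with adjusted p-values of 0.645 and 0.979 by edgeR. They were -0.80 and 0.17 with cluster 1 left out, and the second was 0.064 over mice with at least 10 class cells. Apod, a lipid carrier abundant in both cluster 1 and cluster 4, averaged 10560 ± 5241 CPM in placebo, 5673 ± 2728 in haloperidol and 5815 ± 2807 in olanzapine mice (-0.88 ± 0.43 and -0.84 ± 0.42, adjusted p = 0.645 and 0.979). Apod turned to 0.084 under haloperidol and 0.24 under olanzapine when cluster 1 was left out. That fit also lacked placebo 2, placebo 3 and haloperidol 2. These mice stood at 12121, 18258 and 7882 CPM for Apod and at 1831, 3125 and 471 CPM for Klk6.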

How the data were processed

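Whole UMI counts of 15932 genes in 5581 cells were deposited by the authors in 1 table with a class for each cell. The submitters' processing notes name Cell Ranger, Seurat and mm10, with no version numbers stated there. Cells with over 20% mitochondrial UMIs and doublets (Scrublet score above 0.25) were removed. Counts of class cells were summed per mouse and tested with edgeR 4.0.16 (quasi-likelihood, TMM scaling, filter on low counts, all 3 groups in 1 fit) in R 4.3.3, with Benjamini-Hochberg adjustment, and with DESeq2 1.42.0 as an alternative. Shares and depth were tested by exact two-sided permutation over mice with scipy 1.17.1. With 5 against 5 mice the smallest possible p is 0.00794, with 5 against 4 it is 0.0159 and with 4 against 4 it is 0.0286. Class cells were clustered with scanpy 1.11.5 (2000 variable genes, 20 components, 15 neighbours, Leiden resolution 0.5). Counts set the precision, and intervals cover counting error only.

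Named genes were the 4 class markers, the 10 genes with the smallest p in each comparison and up to 4 members of each list by p, and for the class its 25 leading genes. The members and gene lists were chosen with earlier results of these data known. Alternatives covered scaling, filters, the minimum of cells per mouse, doublets and each mouse left out. Leaving out cluster 1 and keeping shared barcodes once were added after seeing the data. The code of the tests was checked on made-up data with known answers. The edgeR check gave all genes the same spread, so it does not show what size of change these mice could reveal. A few genes are not reported here.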

Additional observations from a re-analysis of the deposited data

Results flagged for a closer look

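Of 102 groups of 4 or 5 mice examined, 5 held a mouse far from the others by Dixon's ratio, and chance gives about 1 in 20. Placebo 1 had a class share of 10.96% of its cells, with 4.66% in the nearest placebo mouse. Mog stood at 2591 CPM in haloperidol 4, with 3275 in the nearest haloperidol mouse. Psmb1 stood at 1151 CPM in placebo 3, which had 8 class cells, with 654 in the nearest placebo mouse. In haloperidol 2, which had 5 class cells, Cdc42bpa stood at 411.7 CPM with 287.5 in the nearest mouse, and Sccpdh at 588.2 CPM with 383.4 in the nearest.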

How the results depend on the processing

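The count of 0 called genes in each comparison held under other scaling, DESeq2, other minimums of cells per mouse, other doublet and mitochondrial settings and fits of 2 groups. With no filter on low counts (12435 genes) edgeR called 3 genes lower in haloperidol than placebo (9630013A20Rik, Kdm3b and Rras2), 5 lower in olanzapine than placebo (those and Marcks and Rtn1), and 0 between the drugs. Leaving out each mouse gave 0 to 0, 0 to 1 and 0 to 0 calls, the 1 being Dcaf17 without placebo 2. Reversals of differences far inside the spread of mice were as follows, and the cause was not tested. The mitochondrial share, haloperidol minus placebo, was -0.0477 points with no mitochondrial filter, -0.0255 with shared barcodes kept once, and -0.227 to 0.469 without single mice. The class share, haloperidol minus olanzapine, was 0.958 without the 4 mice with the fewest cells and -1.22 to 0.990 without single mice. Median UMIs, haloperidol minus olanzapine, were -412.75 without those 4 mice, -365.12 with at least 10 cells, and -133.4 to 410.6. The myelin share, haloperidol minus placebo, was 0.442 with cluster 1 left out and -0.521 to 0.293 without single mice, and for olanzapine -0.0234 to 0.696. The median share of cells with a UMI over the 25 leading genes was 48.3% thinned against 70.2%. With cluster 1 left out, log2 values against placebo under haloperidol were 0.13 for Mog, 0.28 for Cldn11 and 0.084 for Apod, and under olanzapine 0.29 for Mog, 0.35 for Cldn11, 0.17 for Klk6 and 0.24 for Apod. Under olanzapine Mog was 0.072 with no filter and 0.057 with at least 10 cells, Cldn11 0.21 and 0.031, and Klk6 0.064 with at least 10 cells, and without single mice Cldn11 was -0.28 to 0.024. No paired analysis was possible because the labels number the mice 1 to 15 across the groups, which share no number.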
